A study of Mus musculus with 6 samples.

Results

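The genes described here are 42 transcripts of S phase and of G2 and M phase, read in single cells of mouse islets. They were chosen by name as established cycle genes, 17 that act around DNA replication and 25 that act from late G2 through mitosis, and all 42 were found among the 32285 genes listed in the files. Islets came from WT mice and from β14-3-3ζ–KO mice on a C57/BL6 background (C57BL/6J in the methods of the study), aged 12-14 weeks, with 3 libraries per genotype and 1 mouse per library. In the KO mice Cre recombinase is expressed from the *Ins1* locus (the Ins1-CreThor allele) and removes exon 4 of *Ywhaz*, the gene for 14-3-3ζ, so that the deletion is aimed at insulin-expressing cells. Controls were littermates, and the methods of the study state that they had the Cre allele too, so that both genotypes share it. Islets had recovered overnight, were dispersed with trypsin and were depleted of dead cells before capture, so that each value also reflects which cells survived those steps. The study itself asks whether 14-3-3ζ affects β cell proliferation. By immunostaining of pancreas it reported more β cells positive for PCNA or for the protein of *Mki67* in KO mice. In its single-cell data it found no enrichment of proliferation genes. The comparison of KO with WT cells here bears on transcripts of dividing cells only, not on protein.

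Cells divide by copying their DNA in S phase and separating the copies in M phase. Entry into S phase is driven by cyclin E with its kinase, the MCM2-7 helicase opens the origins, and PCNA clamps the polymerases onto DNA. Most S phase genes are switched on by E2F factors. From G2 onward cyclins A and B with CDK1, the Aurora and Polo kinases, condensing enzymes, centromere proteins, and spindle motors take over, and many of their genes carry CHR and CCAAT elements read by the DREAM and B-MYB complexes and by NF-Y. Adult rodent β cells divide rarely, whereas lymphocytes can divide in bursts, and proteins such as PCNA and the MCM subunits are also made at a low level by cells that are not dividing.

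Promoter letters of the members were read to show how the S phase and the G2 and M phase genes differ in sequence. The RefSeq promoter table (GRCm38.p6) held an entry for 35 of the 42 members, 14 S phase genes and 21 G2 and M phase genes. It held none for *Mcm4*, *Ccne2*, *Gins2*, *Ccna2*, *Aurkb*, *Kif20a*, or *Tpx2*. In the 250 bases before each start, both strands were searched for E2F letters (TTTCCCGC, TTTGGCGC, TTTCGCGC, or TTTGCCGC), for CHR letters (TTTGAA or TTCGAA), and for CCAAT, and a gene with several starts was counted once if any start held the letters. E2F letters stood in 6 of 14 S phase promoters (42.9%) and in 1 of 21 G2 and M phase promoters (4.76%), *Cdk1*, against 2.16% of 27025 genes. CHR letters were found in 2 of 14 S phase promoters (14.3%) and 9 of 21 G2 and M phase promoters (42.9%), against 19.6% of all genes. CCAAT stood in 9 of 14 S phase promoters (64.3%) and 19 of 21 G2 and M phase promoters (90.5%), against 37.5% of all genes. These are matches of letters in a window, not measured binding. An S phase promoter and those of the pair of G2 and M members with the most UMIs follow, 5′ to 3′ on the minus strand, each ending at the base before the RefSeq start, with every matched motif in capitals. *Mcm6* (chr1:128359706-128359955) shows 3 E2F matches, a pair of which overlap, and 2 CCAAT boxes. *Mki67* (chr7:135716380-135716629) shows 2 CHR and 3 CCAAT matches, and *Top2a* (chr11:99024190-99024439) shows 4 CHR and 6 CCAAT matches.

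Mcm6: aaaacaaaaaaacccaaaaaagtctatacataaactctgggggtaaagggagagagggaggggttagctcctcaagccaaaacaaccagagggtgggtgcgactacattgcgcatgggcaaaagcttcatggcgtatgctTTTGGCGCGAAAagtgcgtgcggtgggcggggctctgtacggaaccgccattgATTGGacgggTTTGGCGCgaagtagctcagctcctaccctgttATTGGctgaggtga

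Mki67: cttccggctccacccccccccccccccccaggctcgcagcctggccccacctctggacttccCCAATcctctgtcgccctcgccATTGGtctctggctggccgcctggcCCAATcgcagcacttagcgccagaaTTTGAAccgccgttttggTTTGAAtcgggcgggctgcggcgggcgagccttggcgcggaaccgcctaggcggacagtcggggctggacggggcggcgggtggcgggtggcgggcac

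Top2a: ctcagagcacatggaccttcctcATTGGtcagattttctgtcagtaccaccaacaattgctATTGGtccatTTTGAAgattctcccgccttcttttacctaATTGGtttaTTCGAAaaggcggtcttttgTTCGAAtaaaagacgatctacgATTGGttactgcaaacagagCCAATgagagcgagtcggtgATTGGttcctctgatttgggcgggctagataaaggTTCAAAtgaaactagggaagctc

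Cells were grouped by clusters that were computed without the 42 members, without other cycle and histone genes, and without *Ywhaz*, so that a dividing cell stayed with its own lineage and no cluster led by cycle genes formed. Each class was named from marker genes and is to be read as cells like that type (in the plots the suffix -like is left out). The 6 libraries held between 74083947 (WT 1) and 98294915 UMIs (KO 2), and 25239 of their barcodes passed the filters. Insulin-rich cells numbered 6110, with 814, 913, and 962 in WT 1 to 3 and 1266, 1044, and 1111 in KO 1 to 3. The median of their 11 β cell markers was found in 94.3% of these cells, against 27.9 to 44.9% of cells in the other 6 classes, so that RNA of these markers was met in every class. The other classes were other endocrine cells (1953), endothelial-like (1094), stellate-like (315), macrophage-like (491), B-like (3276), and T-like cells (2123). Lymphocytes were uneven. WT 2 held 1304 and KO 2 held 1640 of the B-like cells, whereas KO 1 held 13 and WT 3 held 30, and WT 3 held 8 T-like cells. Pairs of libraries shared between 7 and 27 barcode sequences. *Ywhaz* in insulin-rich cells was 124, 166, and 160 CPM (UMIs per 1000000 UMIs of the class) in WT 1 to 3 and 18.7, 16.6, and 19.0 CPM in KO 1 to 3, with no overlap, although a 3′ tag lies outside exon 4 and reads the level of the transcript rather than the deletion.

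Among the members, *Pcna* had the highest mean level over libraries in each of the 7 classes, although with UMIs summed over libraries *Top2a* (2081) and *Mki67* (1777) exceeded *Pcna* (1703) in B-like cells. A level below is likewise in CPM within a class of a library, and 3′ tag counts of this kind do not grow with transcript length. In insulin-rich cells *Pcna* stood at 29.9 ± 2.33 CPM (SD, n = 6 libraries), followed by *Rrm1*, the large subunit of ribonucleotide reductase, at 11.4 ± 1.52 CPM and the helicase subunit *Mcm7* at 6.57 ± 0.879 CPM. *Pcna* was at 34.8 ± 1.96 CPM in other endocrine cells, 59.9 ± 35.2 in B-like cells, 70.7 ± 53.9 in T-like cells, 93.9 ± 10.5 in endothelial-like cells, 105 ± 30.9 in stellate-like cells, and 227 ± 50.2 in macrophage-like cells. *Pcna* was higher in other endocrine than in insulin-rich cells in each of the 6 libraries. In the order given B-like, T-like, endothelial-like, and stellate-like cells lay within their spread of each neighbour, and macrophage-like cells lay above all of them, with a lowest library of 168 CPM. Behind *Pcna*, the replication helicase held most places. The next pair was *Mcm3* and *Mcm6* in endothelial-like cells (64.3 ± 7.78 and 57.7 ± 12.2 CPM), *Mcm7* and *Mcm6* in stellate-like cells (44.1 ± 19.4 and 39.1 ± 19.6 CPM), and *Rrm1* and *Mcm6* in other endocrine cells (15.8 ± 0.902 and 11.6 ± 0.714 CPM). *Mcm3* and the centromeric histone *Cenpa* followed in macrophage-like cells (29.8 ± 7.84 and 27.9 ± 16.5 CPM), and *Top2a*, the topoisomerase that untangles replicated chromosomes, reached the top 3 in B-like and T-like cells only (48.8 ± 60.4 and 48.4 ± 64.0 CPM).

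**Figure D1:**
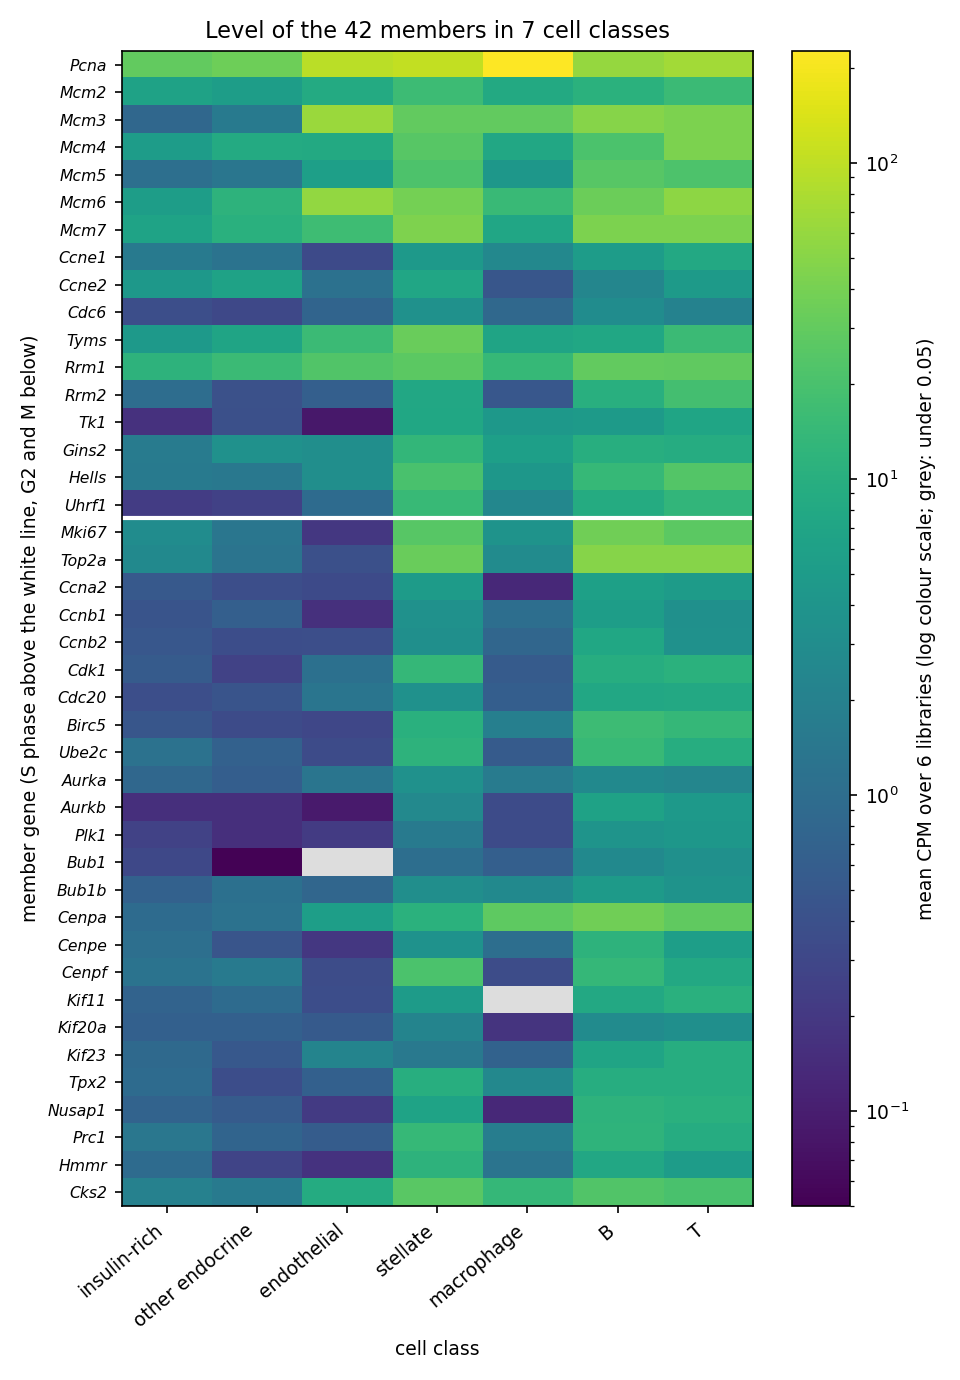
Mean level of each of the 42 members (rows) in 7 cell classes (columns), as CPM over 6 libraries on a log colour scale, with S phase genes above the white line and G2 and M phase genes below it. *Pcna* is the brightest row in every class, and the lower block is mostly dark in insulin-rich, other endocrine, endothelial-like, and macrophage-like cells. Grey cells mark *Bub1* in endothelial-like and *Kif11* in macrophage-like cells, each with 0 UMIs.

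In insulin-rich cells the S phase sum varied little between libraries and the G2 and M phase sum varied widely. Summed over the 17 S phase members, insulin-rich cells held 77.6, 83.6, and 86.7 CPM in WT 1 to 3 and 83.5, 74.9, and 89.2 CPM in KO 1 to 3. Summed over the 25 G2 and M phase members, the same cells held 31.8, 9.78, and 32.2 CPM in WT and 36.8, 7.90, and 23.0 CPM in KO. The second sum was low in WT 2 and KO 2 and high in the other 4 libraries, whichever the genotype. Between genotypes neither sum passed the test (p = 0.9 for both, 2-sided exact permutation test, 3 against 3 libraries, for which the smallest possible p is 0.1). In other endocrine cells the S phase sum was 115, 111, and 111 CPM in WT and 109, 110, and 106 CPM in KO, without overlap (p = 0.1, the smallest possible, exact permutation test), and the G2 and M phase sum was 16.8 ± 11.1 CPM. Both sums were tested in this way in every class, without adjustment for the number of tests, and no other sum reached this p. The sums were 304 ± 28.1 and 26.9 ± 3.26 CPM in endothelial-like cells (SD, n = 6). In B-like and T-like cells the G2 and M phase sum followed the library, from 27.1 CPM in WT 3 to 1083 CPM in WT 2 for B-like cells and from 24.7 CPM in WT 3 to 702 CPM in KO 3 for T-like cells.

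Barcodes of shallow clusters, with a median of 2033 UMIs, held 102 CPM of S phase members and 31.0 CPM of G2 and M phase members with all libraries pooled, against 82.9 and 25.4 CPM in insulin-rich cells pooled in the same way. By library the S phase sum of shallow barcodes lay between 91.9 and 117 CPM, while the G2 and M phase sum was 116 CPM in WT 3, 43.0 CPM in KO 1, and 13.2 to 19.8 CPM in the other 4. How much of the low S phase level of insulin-rich cells is free RNA in the droplets was not tested.

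Within insulin-rich cells the 42 members spanned from 5764 UMIs (*Pcna*) to 31 UMIs (*Aurkb*) over all libraries. The 10 members with the most UMIs were *Pcna*, *Rrm1* (2241), *Mcm7* (1298), *Mcm2* (1240), *Mcm6* (1045), *Mcm4* (1033), *Tyms* (921), *Ccne2* (862), *Mki67* (636), and *Top2a* (581). The replication genes among them varied less between libraries than *Mki67* and *Top2a*. *Pcna* ranged from 26.4 CPM in WT 1 to 32.9 CPM in WT 2, with 28.2, 29.8, and 31.2 CPM in KO 1 to 3. *Rrm1* was at 11.2, 11.2, and 12.5 CPM in WT and 12.4, 8.51, and 12.4 CPM in KO, so that only KO 2 stood below the WT range. *Mcm7* was at 7.49, 6.04, and 5.90 CPM in WT and 7.80, 5.69, and 6.48 CPM in KO, and the genotypes overlapped. *Mcm2* was at 6.13, 6.96, and 6.84 CPM in WT and 6.36, 5.24, and 6.67 CPM in KO. *Mcm4* was at 5.31, 4.65, and 5.68 CPM in WT and 5.53, 4.26, and 5.98 CPM in KO. *Mcm6* was at 3.40, 5.41, and 6.15 CPM in WT and 5.25, 6.22, and 6.29 CPM in KO, where WT 1 stood below the other 5 libraries. *Mcm3* and *Mcm5*, the other subunits of the same hexamer, were at a lower level of 0.843 ± 0.211 and 1.09 ± 0.146 CPM (SD, n = 6). *Tyms*, the thymidylate synthase, was at 4.52, 4.06, and 5.11 CPM in WT and 4.44, 4.38, and 5.71 CPM in KO. *Ccne2*, a cyclin E, was at 4.11, 4.73, and 4.79 CPM in WT and 4.67, 3.68, and 4.53 CPM in KO, with the genotypes again overlapping.

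*Mki67* and *Top2a* split the libraries instead. *Mki67*, which coats mitotic chromosomes and is the standard proliferation marker, was at 4.66, 0.278, and 4.57 CPM in WT 1 to 3 and 4.67, 0.123, and 3.43 CPM in KO 1 to 3, from 171, 7, 145, 185, 3, and 125 UMIs. *Top2a* was at 3.29, 0.437, and 4.23 CPM in WT and 5.07, 0.450, and 2.83 CPM in KO. Both were low in WT 2 and KO 2 and higher in the other 4 libraries, whichever the genotype. *Bub1*, a spindle checkpoint kinase, had 0 UMIs in WT 2 and KO 2 and 69 UMIs over the other 4 libraries.

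**Figure D2:**
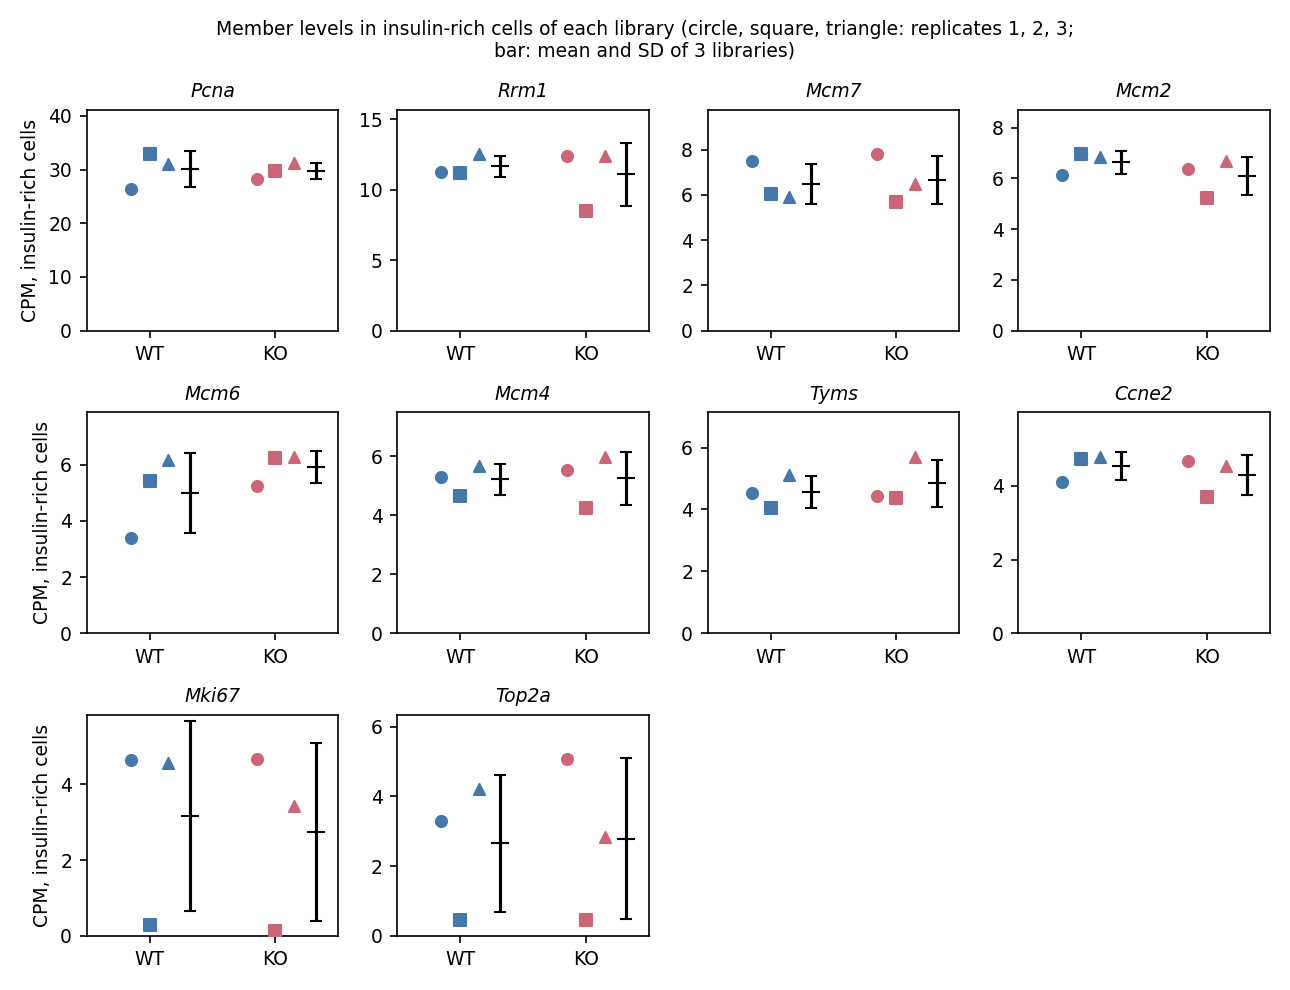
Level in insulin-rich cells (CPM) of the 10 members with the most UMIs there, for each WT library (blue) and KO library (red), with the mean and SD of 3 libraries as the black bar beside each group. The S phase genes lie closer together than *Mki67* and *Top2a*, which drop to 0.123 to 0.450 CPM in replicate 2 of both genotypes.

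A cell was called dividing when it had UMIs of at least 5 of the 25 G2 and M phase members. By this call 32 of 6110 insulin-rich cells were dividing, 0.524% (95% exact binomial interval 0.358 to 0.739%, which covers counting error only). The share moved with the call and with depth, to 65 cells (1.06%) at 3 or more members and to 11 of 5912 cells (0.186%) with each cell thinned to 3000 UMIs, at which B-like and T-like cells were at 3.06% and 1.13%. They numbered 6, 0, and 7 in WT 1 to 3 and 11, 0, and 8 in KO 1 to 3. For WT 2, 0 of 913 cells allows a share of up to 0.329%, and for KO 2, 0 of 1044 cells allows up to 0.287%. Few cells lay near the limit of the call. Of the 6110 insulin-rich cells, 4673 had no G2 and M phase member, 1175 had 1, 197 had 2, 33 had 3 or 4, only 3 had 5 to 7, and 29 had 8 or more. The dividing cells were deeper than other insulin-rich cells, with a median of 59485.5 against 29072 UMIs. They held low transcript shares of other hormones (a median of 0.0565% of UMIs in WT and 0.0796% in KO), and none of the 32 had UMIs of 3 or more B, T, endothelial, or stellate markers, while 1 of 13 in WT had 3 or more macrophage markers and 1 of 19 in KO had a UMI of the leukocyte gene *Ptprc*.

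Lymphocytes held most of the dividing cells. There were 139 among 3276 B-like cells (4.24%, 95% exact binomial interval 3.58 to 4.99%), with 3, 81, and 0 in WT 1 to 3 and 0, 55, and 0 in KO 1 to 3. Among 2123 T-like cells there were 34 (1.60%, interval 1.11 to 2.23%), with 0, 11, and 0 in WT and 0, 20, and 3 in KO. Stellate-like cells held 13 of 315 (4.13%, interval 2.22 to 6.95%), 6 of them in WT 2, 1 in WT 3, and 6 in KO 2. With each cell thinned as above, stellate-like cells held 2 of 270 (0.741%), 1 in WT 2 and 1 in WT 3. B-like and T-like cells thinned in this way were at 3.06% and 1.13%. Macrophage-like, other endocrine, and endothelial-like cells held 3, 2, and 1 before thinning, and 0, 2, and 0 after it. WT 2 and KO 2, which held most of the dividing lymphocytes, were the libraries without dividing insulin-rich cells. Doublet calls had removed 44 of 328 dividing cells over all classes. The difference of each class from insulin-rich cells of the same library did not pass in any of 6 comparisons (2-sided exact sign-flip permutation test over 6 libraries, adjusted p from 0.4875 to 0.906, smallest possible unadjusted p 0.03125). B-like cells were 1.33 percentage points above insulin-rich cells on average (0.357 without WT 2) and higher in 3 of 6 libraries. T-like cells were 0.785 points above (0.252 without KO 3 and 0.509 without WT 2), stellate-like cells 2.43 points above (1.47 without WT 2), and macrophage-like cells 0.0339 points above, also higher in 3 of 6. The last difference turned below 0 without WT 2 (-0.155), KO 2 (-0.0972), or KO 3 (-0.133). Other endocrine and endothelial-like cells were 0.408 and 0.371 points below and higher in 1 of 6.

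**Figure D3:**
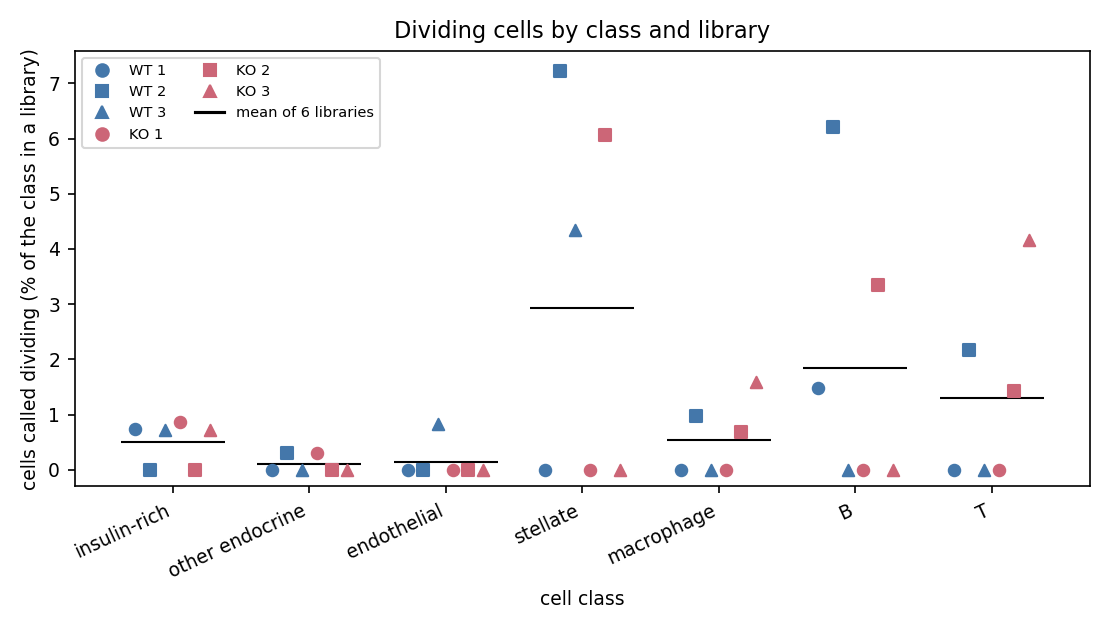
Share of cells called dividing (percent of the class in a library, vertical axis) in 7 cell classes, with 1 point for each WT (blue) and KO (red) library and the mean of 6 libraries as a black line. Insulin-rich cells lie between 0 and 0.869%, with WT 2 and KO 2 at 0, while WT 2 and KO 2 (squares) are the highest pair of libraries in stellate-like and B-like cells.

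The share of each member's UMIs that lay in dividing cells was counted, with the call repeated without that member. Because the call uses G2 and M phase members, cells in S phase that have not reached G2 fall outside it, and S phase members are placed lower by construction. Outside the call 339 insulin-rich cells had UMIs of at least 5 of the 17 S phase members, against 24 of the 32 inside it. Depth moved with this count. Cells with 5 or more S phase members made up 11.1% of insulin-rich cells in WT 1, which had the highest median per insulin-rich cell (41743.5 UMIs). In KO 2, which had the lowest such median (22141.5 UMIs), they made up 2.01%. With cells thinned as for the dividing call, 1 of 5912 insulin-rich cells (0.0169%) had 5 or more, against 363 of 6110 (5.94%) unthinned. B-like cells went from 5.74% to 2.64% and T-like cells from 2.59% to 1.69%. How many of the 339 cells were in S phase was not tested. The shares of UMIs in dividing cells are a description and no comparison of the phases. In insulin-rich cells the 25 G2 and M phase members had a median of 58.1% of their UMIs in dividing cells, and 19 of 25 had over 50% there. The 17 S phase members had a median of 9.12%, with 2 of 17 above 50%. *Mki67* had 83.8% of 636 UMIs in dividing cells, where it stood at 292 CPM against 0.536 CPM in other insulin-rich cells. *Top2a* had 81.1% of 581 UMIs there (258 against 0.572 CPM), and *Hmmr*, a spindle-binding protein, had 90.0% of 200 UMIs. *Cdk1*, the kinase that drives mitosis, had 87.5% of 120 UMIs there (57.6 against 0.0780 CPM). All 69 UMIs of *Bub1* came from dividing cells. Other regulators were less concentrated. *Kif20a*, a motor of the central spindle, had 14.7%, the checkpoint protein *Bub1b* 22.1%, and *Kif23* 25.4% of UMIs in dividing cells.

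Among S phase members, *Uhrf1*, which guides DNA methylation behind the fork, had 72.7% of 44 UMIs in dividing cells and the salvage enzyme *Tk1* 53.1% of 32 UMIs. *Pcna* had 3.38% and *Mcm2* 4.68%, although both were higher in dividing cells, *Pcna* at 107 against 29.0 CPM and *Mcm2* at 31.8 against 6.15 CPM. The hexamer was uneven here too, since *Mcm3* and *Mcm5* rose from 0.697 and 0.905 CPM in other cells to 19.2 CPM each in dividing cells, as a description with no test. In terms of cells, and with the call on all 25 members, 3260 insulin-rich cells had a *Pcna* UMI and 28 of them (0.859%) were dividing, whereas 120 had a *Mki67* UMI and 30 of them (25%) were dividing. Cells with a *Mki67* UMI were deeper than those without (41215 against 28921 UMIs, medians). A *Mki67* UMI was found in 1.91 ± 1.12% of insulin-rich cells (SD, n = 6) and in 0.187 ± 0.329% of endothelial-like cells, a class with a median of 7900.5 UMIs against 29166. Thinned to 3000 UMIs per cell, these shares were 0.329 ± 0.203% and 0.154 ± 0.378%. The second was close to the level of 1 UMI in a library. The first came from 810 to 1229 cells per library.

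Shares were higher in lymphocytes, but such a share also rises with the share of cells called dividing. That was 4.24% of B-like and 1.60% of T-like against 0.524% of insulin-rich cells. The fold between dividing and other cells went both ways. For *Mki67* it was 546 in insulin-rich, 361 in B-like, and 198 in T-like cells, and for *Pcna* 3.69, 5.08, and 8.45. In B-like cells the S phase members had a median of 64.7% of UMIs in dividing cells and the G2 and M phase members 95.6%, and in T-like cells the medians were 55.6% and 90.2%. *Pcna* was the least concentrated S phase member in both (44.6% and 36.6%), and *Cenpa* the least concentrated G2 and M phase member in both (54.1% and 31.0%). With *Mki67* itself counting toward the call, a *Mki67* UMI fell in a dividing cell for 127 of 151 B-like cells (84.1%), 26 of 49 T-like cells (53.1%), 9 of 11 stellate-like cells (81.8%), and 2 of 23 other endocrine cells (8.70%). Dividing B-like cells were also deeper than other B-like cells (16280 against 4762 UMIs, medians).

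**Figure D4:**
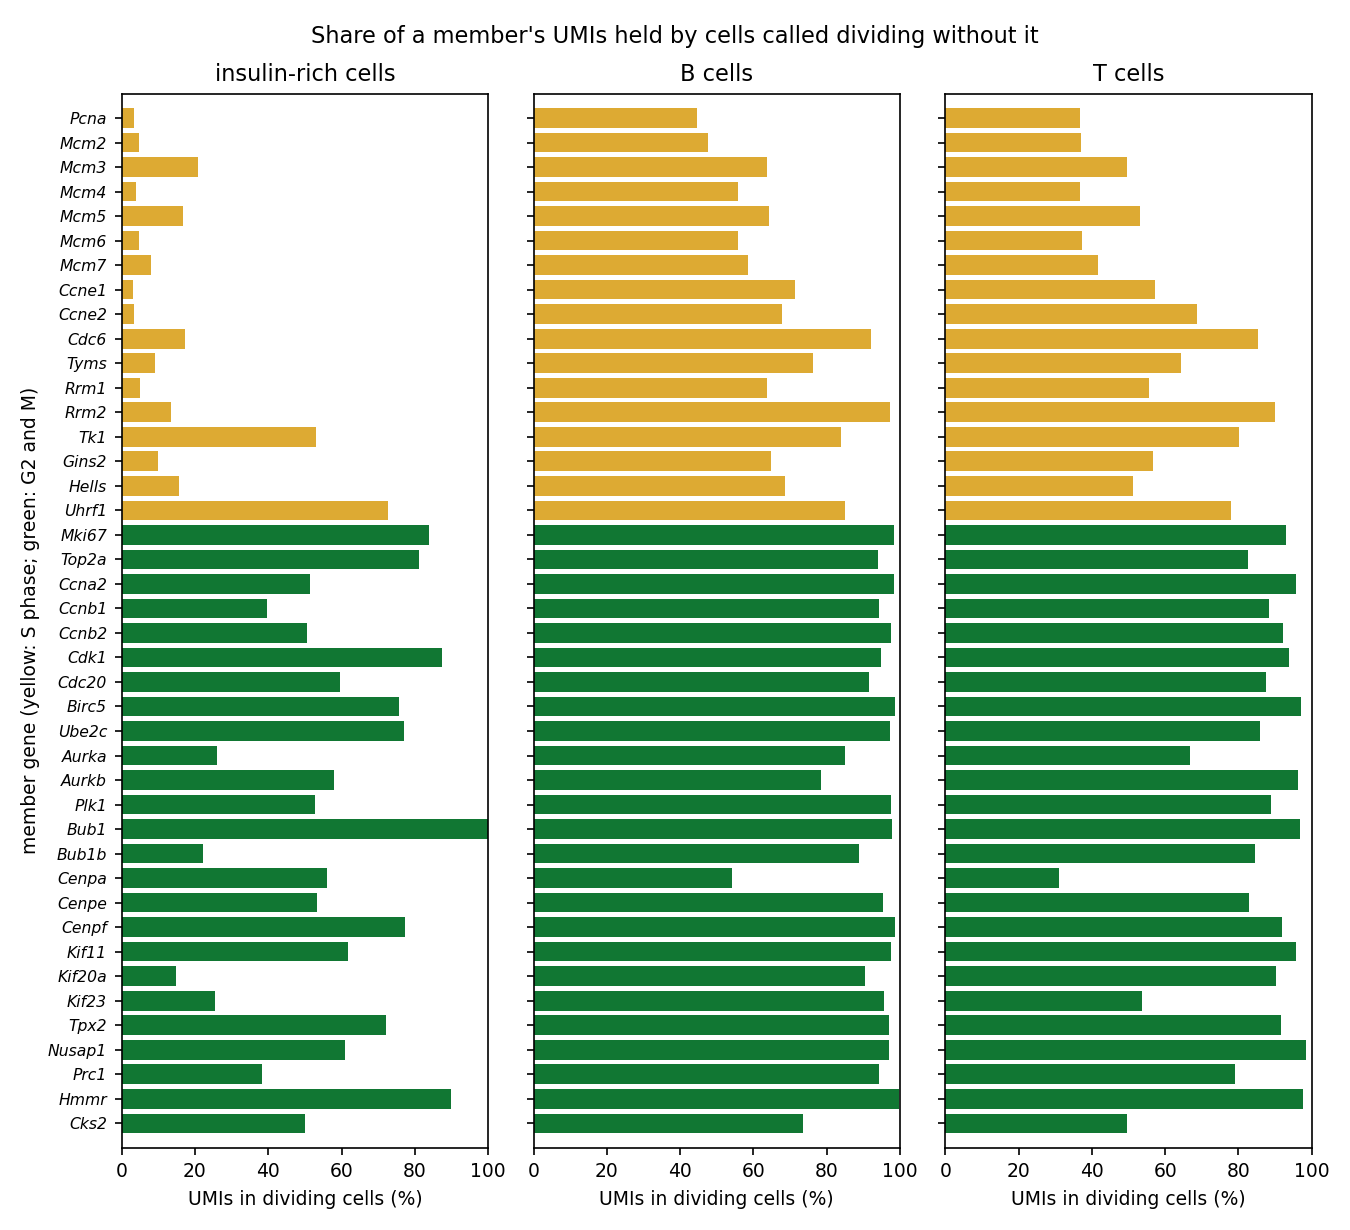
Share of a member's UMIs (percent, horizontal axis) held by cells called dividing from the other G2 and M phase members, for each member (rows) in insulin-rich, B-like, and T-like cells. In insulin-rich cells most S phase bars (yellow) are short, with a median of 9.12%, and G2 and M phase bars (green) are longer, with a median of 58.1%, while in B-like and T-like cells both are long.

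Whether loss of 14-3-3ζ changed these transcripts in β cells was asked first of cells. The share of insulin-rich cells called dividing was 0.488 ± 0.423% in WT and 0.530 ± 0.465% in KO (SD, n = 3 libraries each), a difference of 0.0414 percentage points (p = 1, 2-sided exact permutation test). A *Mki67* UMI was found in 2.09, 0.767, and 2.60% of insulin-rich cells in WT 1 to 3 and 3.00, 0.287, and 2.70% in KO 1 to 3, and the means differed by 0.178 percentage points (p = 0.8, exact permutation test). A *Pcna* UMI was found in 60.4, 52.1, and 55.9% of cells in WT and 50.1, 46.5, and 57.2% in KO, a mean difference of -4.94 percentage points (p = 0.3, exact permutation test). All 3 differences were within the spread of the libraries, and 3 against 3 libraries cannot give a p under 0.1. Depth moved with the *Pcna* shares, since WT 1 had the highest median of 41743.5 UMIs per insulin-rich cell and KO 2 the lowest of 22141.5, and with every cell thinned to 3000 UMIs the shares were 9.07 ± 0.826% in WT and 8.67 ± 0.771% in KO (p = 0.6, exact permutation test). Thinning left out 117 WT and 81 KO cells. Without WT 2 and KO 2, a choice made after their 0 counts were seen, the difference in dividing cells was 0.0621 points, that in *Mki67* 0.507 points, and that in *Pcna* -4.57 points. The direction for dividing cells and for *Mki67* rested on single libraries, with -0.203 and -0.347 points without WT 2, -0.128 and -0.324 points without KO 1, and -0.0538 and -0.174 points without KO 3, and it also turned with thinned cells (-0.0241 and -0.0289 points).

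Asked of genes, UMIs summed over the insulin-rich cells of each library were compared with edgeR (quasi-likelihood fit, p adjusted by Benjamini-Hochberg over 14995 genes). All 42 members were tested and none was called, against 0.00667% of all genes (1 gene). DESeq2 called none of the 42 either, against 0.0333% of all genes. At an unadjusted p under 0.05, 1 of 42 members (2.38%) passed by edgeR, against 4.65% of all genes, and none by DESeq2, against 3.27%. That gene was *Tk1*, at 0.245, 0.239, and 0.252 CPM in WT 1 to 3 and 0.0757, 0.0409, and 0.137 CPM in KO 1 to 3, from 32 UMIs in all (log2 fold change -1.48, SE 0.49, unadjusted p = 0.0162, adjusted p = 0.937). Its level was lower in all 3 KO libraries than in any WT library. In the other settings in which it reached 30 UMIs its adjusted p lay between 0.366 (with the replicate number as a block) and 1.0, and its log2 fold change between -1.55 and -0.99. After TMM scaling 3 of 42 members, *Tk1*, *Mcm2*, and *Ccne2*, had no overlap between genotypes, against 11% of all genes, and the plain CPM of *Mcm2* and *Ccne2* given above do overlap. The median log2 fold change was -0.02 over 17 S phase members and -0.21 over 25 G2 and M phase members, against -0.00065 over all genes tested. *Pcna* had a log2 fold change of -0.03 (SE 0.08), *Rrm1* -0.10 (SE 0.12), *Mcm6* 0.24 (SE 0.18), and *Mcm2* -0.15 (SE 0.10). Standard errors of G2 and M phase members were wider, as for *Mki67* (-0.27, SE 0.90), *Top2a* (0.02, SE 0.76), and *Cdk1* (-0.11, SE 0.80). In this fit the low values of WT 2 and KO 2 count as spread within each genotype. Only changes well beyond these errors could be called over 14995 genes, and smaller ones were not detectable. A replicate block takes out spread shared by same-numbered libraries, and gave these 3 members log2 fold changes of -0.34, -0.04, and -0.16. No member was called with the block, which called 22 of all genes, and whether the numbers pair the libraries is not settled.

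**Figure D5:**
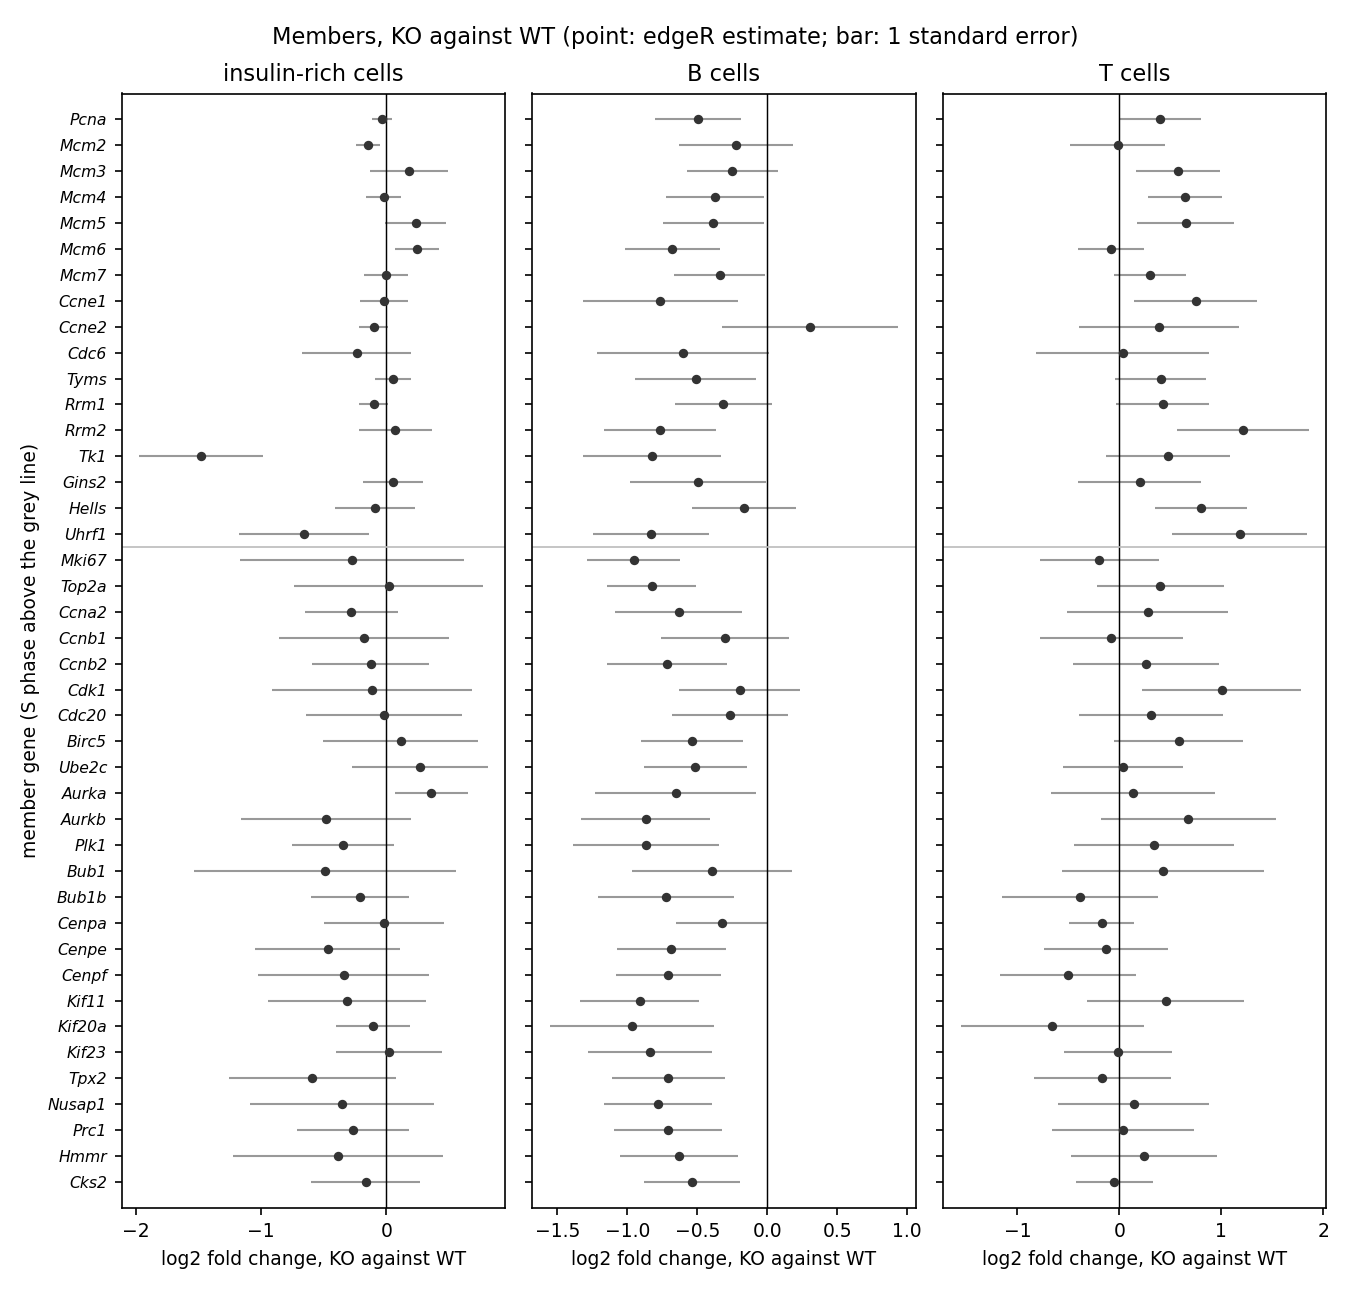
Log2 fold change of KO against WT (horizontal axis; point: edgeR estimate; bar: 1 standard error) for each member in insulin-rich, B-like, and T-like cells, the last fitted without WT 3. In insulin-rich cells most S phase members (above the grey line) have shorter bars than the G2 and M phase members, *Tk1* (-1.48) and *Uhrf1* (-0.66) lie farthest from 0, and the bars of *Tk1*, *Uhrf1*, *Mcm2*, *Mcm6*, and *Aurka* do not reach 0.

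Most dividing insulin-rich cells of KO mice still had a *Ywhaz* UMI. Of the 19 dividing insulin-rich cells of KO mice, 16 (84.2%) had a *Ywhaz* UMI, 9 of 11 in KO 1 and 7 of 8 in KO 3, against 37.7% of the 3402 other KO insulin-rich cells. In WT the shares were 13 of 13 and 88.2%. *Ywhaz* stood at 64.2 and 40.4 CPM in dividing cells of KO 1 and KO 3, against 18.1 and 18.7 CPM in other insulin-rich cells of the same libraries, and at 71.7 and 147 CPM in dividing cells of WT 1 and WT 3, against 124 and 160 CPM. Depth moved with this, since dividing KO cells had a median of 45847 UMIs and the others 26965.5. Among KO cells with at least 45847 UMIs, 8 of 10 dividing cells (80.0%) and 54.2% of 465 others had a *Ywhaz* UMI, and with cells thinned to 10000 UMIs the shares were 44.4% of 18 and 16.4% of 3139. Only 2 libraries hold such cells, so no test was made. Leaving out every KO cell with a *Ywhaz* UMI kept 3 of the 19 dividing KO cells, and the difference in the dividing share, KO minus WT, turned from 0.0414 to -0.348 points (p = 0.4, exact permutation test). That choice removed cells from KO alone and kept the shallower ones. Their medians were 27061.5, 21456, and 28343 UMIs in KO 1 to 3, against 33014, 23914, and 33693 in those left out. The difference therefore cannot be read as an effect of the deletion.

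In the other endocrine cells, in which *Ywhaz* was between 151 and 152 CPM in WT and between 124 and 134 CPM in KO, without overlap, 20 members had the 30 UMIs needed to be tested and none was called, against 0% of all genes. None of the 20 had an unadjusted p under 0.05 (2.91% of all genes), and the lowest belonged to *Ccne1*, a cyclin E, at 1.26, 1.40, and 1.85 CPM in WT and 0.941, 1.13, and 0.839 CPM in KO (log2 fold change -0.59, SE 0.41, adjusted p = 0.995). *Rrm1* was at 15.1, 14.8, and 16.8 CPM in WT and 16.8, 15.1, and 15.9 CPM in KO, overlapping. In endothelial-like cells 13 members were tested and none was called (0% of all genes). The 1 member with an unadjusted p under 0.05 (3.1% of all genes) was *Cks2*, a subunit of cyclin-dependent kinases, at 7.20, 5.43, and 6.86 CPM in WT and 9.17, 9.81, and 15.1 CPM in KO (log2 fold change 0.82, SE 0.33, adjusted p = 0.983). Macrophage-like cells gave 11 tested members and none called (0% of all genes), none of them with an unadjusted p under 0.05 (5.88% of all genes). *Mcm3* had the lowest p there (log2 fold change 0.37, SE 0.27, adjusted p = 0.894), and *Pcna* was at 227, 181, and 276 CPM in WT and 293, 168, and 214 CPM in KO. DESeq2 called none of the members in other endocrine, endothelial-like, or macrophage-like cells (0.00741, 0.00933, and 0.0317% of all genes) and gave none an unadjusted p under 0.05 (0.949, 0.923, and 1.63% of all genes).

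In stellate-like cells 26 members were tested and none was called by edgeR or DESeq2 (0% of all genes by either). An unadjusted p under 0.05 was reached by 3 members with each tool, against 1.65% of all genes by edgeR and 0.97% by DESeq2. By edgeR these were *Cks2*, *Cenpa*, and *Mki67*, all lower in KO. *Cks2* was at 36.3, 28.6, and 47.4 CPM in WT and 9.48, 19.5, and 16.3 CPM in KO (log2 fold change -1.20, SE 0.39, adjusted p = 1.0). *Mki67* was at 0, 25.2, and 121 CPM in WT and 0, 4.25, and 0 CPM in KO, so that WT 3, with 23 stellate-like cells of which 1 was dividing, held the highest value.

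By edgeR, though not by DESeq2, B-like cells gave the lowest member p-values of any class. All 42 members were tested and none was called by edgeR or DESeq2, against 0.228% of all genes by edgeR and 0% by DESeq2. By edgeR 6 members had an unadjusted p under 0.05, all lower in KO, against 6.26% of all genes, and none did by DESeq2, against 0.498% of all genes. These were *Mki67*, *Top2a*, *Kif11* (a spindle motor), *Uhrf1*, *Nusap1* (a spindle protein), and *Mcm6*. *Mki67* was at 15.2, 145, and 0 CPM in WT and 0, 55.5, and 0 CPM in KO (log2 fold change -0.95, SE 0.33, adjusted p = 0.370). *Top2a* was at 27.8, 163, and 9.03 CPM in WT and 16.5, 69.7, and 7.02 CPM in KO (log2 fold change -0.83, SE 0.32, adjusted p = 0.495). Levels were set by WT 2 and KO 2, which held most of the cells, and the groups overlapped. The median log2 fold change was -0.71 over the 25 G2 and M phase members and -0.49 over the 17 S phase members, against -0.02 over all genes. With the replicate number as a block, *Mki67* was called (log2 fold change -1.31, adjusted p = 0.00786) against 0.481% of all genes in that fit, and 24 of 42 members had an unadjusted p under 0.05, against 6.88% of all genes. The calls also changed with the library left out. Without WT 2, 5 members were called, all higher in KO (*Cenpf*, *Ube2c*, *Cenpe*, *Ccnb2*, and *Birc5*), against 0.414% of all genes, and without KO 2, 5 were called, all lower in KO (*Cenpf*, *Ube2c*, *Mki67*, *Top2a*, and *Birc5*), against 0.171% of all genes. Without WT 1 or without WT 3, *Mki67* alone was called and was lower in KO (log2 fold change -1.45 and -1.15), against 0.315% and 0.617% of all genes.

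T-like cells were fitted without WT 3, whose 8 cells were under the minimum of 10 that the design had set for every library, a choice made once the cell numbers were known. All 42 members were tested and none was called by edgeR or DESeq2, against 0.0354% of all genes by edgeR and 0% by DESeq2, and none had an unadjusted p under 0.05 by either tool, against 4.59% of all genes by edgeR and 0.858% by DESeq2. *Mki67* was at 3.83 and 69.8 CPM in WT 1 and WT 2 and 0, 23.2, and 67.1 CPM in KO 1 to 3 (log2 fold change -0.20, SE 0.59). *Rrm2*, the small subunit of ribonucleotide reductase, had the lowest p (log2 fold change 1.21, SE 0.65, adjusted p = 1.0). KO 3, with 3 dividing cells among 72, held the highest *Top2a* at 159 CPM against 91.3 CPM in WT 2. With all 6 libraries none was called, and without WT 2, which left WT 1 alone in its group and assumed to vary like the KO libraries, 7 were called, all higher in KO (*Nusap1*, *Mki67*, *Cdk1*, *Top2a*, *Birc5*, *Rrm2*, and *Kif11*), against 1.31% of all genes.

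Other genes of the cycle, from lists written by function, were not called either. Of 30 other replication genes 29 were tested in insulin-rich cells, of 53 other mitosis genes 47, and of 20 G1 and checkpoint regulators 19, and none was called (0.00667% of all genes). An unadjusted p under 0.05 was reached by *Lig1*, the ligase that joins replicated fragments, and *H2afx*, a histone variant, both with higher fitted values in KO, and by 1 regulator in each direction (*E2f1* and *Chek1*), against 4.65% of all genes. The medians of their log2 fold changes were 0.00, 0.07, and 0.05, against -0.00065 over all genes. In the other 6 classes none of the genes of these lists was called, against 0.228% of all genes in B-like, 0.0354% in T-like, and 0% in the other 4. In B-like cells 49 of 52 other mitosis genes had values below 0 (median log2 fold change -0.54), and 5 had an unadjusted p under 0.05 (*Ckap2l*, *Cdc25b*, *Stmn1*, *Ncapg*, and *Kif18b*, all lower in KO), against 6.26% of all genes. Over these 6 classes the medians of other mitosis genes ranged from -0.62 in stellate-like cells to 0.19 in T-like cells.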

How the data were processed

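The data are 6 single-cell 3′ RNA libraries of islet cells, 3 per genotype, each from 1 mouse. The deposited matrices hold UMI counts per gene and cell barcode, which the authors made with Cell Ranger 6.0.2 on build mm10, and the submitters' notes also name Seurat. The 42 members, the other gene lists, and the questions asked were chosen with earlier results of these data known. Cells with at least 500 genes and at most 10% mitochondrial UMIs were kept. Doublets were taken as the highest-scored 0.8% per 1000 barcodes of a library, because the automatic threshold of Scrublet marked under 0.5% in every library. Leiden clusters (scanpy 1.11.5, Python 3.11.15, 2000 variable genes, 30 components, 15 neighbours, resolution 1) were computed without cycle, histone, *Ywhaz*, insulin, mitochondrial, and ribosomal genes. A cluster was named by at least 3 markers of a type found in 10% of its cells and 1.5-fold above the rest, and clusters with a median under 3500 UMIs were set apart as shallow, limits that were set once the clusters had been seen. Classes rebuilt in this way can differ from those of the study. UMIs were summed per library and class, and genes with at least 30 UMIs were compared by edgeR 4.0.16 (R 4.3.3, quasi-likelihood test, TMM, Benjamini-Hochberg, called at an adjusted p under 0.05), with DESeq2 1.42.0 as an alternative. Scripts were tested on simulated data. A 0 count was read as allowing 3 counts. The genes named are *Mki67*, *Pcna*, *Top2a*, and the 10 members with the most UMIs in insulin-rich cells, and in each class the 3 highest members and the one with the lowest genotype p; others are named where a count turns on them, chosen after their values were seen. The alternatives were other scaling, filters, doublet and mitochondrial limits, a marker gate, thinning, other dividing calls, a replicate block, and leaving out libraries.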

Additional observations from a re-analysis of the deposited data

Results flagged for a closer look

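Cells past the dividing call were also present in clusters that entered no comparison, where none had been asked for. A group of 189 cells led by the plasma cell gene *Jchain*, 78 of them in WT 2 and 109 in KO 2, held 44 dividing cells (23.28%), 30 of 78 in WT 2 (38.5%), 13 of 109 in KO 2 (11.9%), and 1 in WT 1. Ductal-like cells had 6 of 200 cells past the call (3%), 3 each in WT 1 and WT 3, but 37 (18.5%) with 3 or more members, 0 with 8 or more, and 0 of 163 once thinned to 3000 UMIs. Their G2 and M phase UMIs were mostly *Cks2* (162), *Prc1* (117), and *Kif23* (48), with 2 of *Mki67* and 0 of *Hmmr*, *Kif11*, *Bub1*, and *Ccnb1*, so that the call alone is not read as division there. Ductal-like cells also held 1.54% of the *Cenpf* and 0.749% of the *Cenpe* UMIs of all kept cells. Whether they divide was not tested. Cells with transcripts of several hormones held 6 of 951 (0.6309%), and barcodes of shallow clusters held 4 of 8008 (0.04995%).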

How the results depend on the processing

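No member was called in insulin-rich, other endocrine, endothelial-like, stellate-like, or macrophage-like cells under any alternative run, in fits that called between 0 and 109 of all genes. In B-like cells 1 member (*Mki67*) was called with a replicate block, and 0 to 5 were called when a library was left out. In T-like cells 0 to 7 were called when a library was left out, and no block fit was made with 5 libraries. Same-numbered libraries correlated at 0.246, 0.552, and 0.0135 in insulin-rich cells, and WT 3 correlated best with KO 1 (0.307), so that the numbers were not taken to pair them. In other endocrine cells the same-numbered libraries correlated at 0.515, 0.346, and 0.196, each over 0.1, although WT 3 correlated slightly better with KO 2 (0.203), so that pairing is not settled by these values. For cell shares a replicate block cannot move the mean difference, and its exact sign-flip p was 1 for dividing cells (0.0414 points), 0.75 for *Mki67*, and 0.5 for *Pcna*, with 0.25 the smallest possible. In the gene fits the block changed no call of a member outside B-like cells. Over all genes it called 22 in insulin-rich cells, against 1 without it. In other endocrine, endothelial-like, and macrophage-like cells it called 12, 14, and 55 genes, against 0 in each without it. In stellate-like cells it called 0 genes. The difference in dividing insulin-rich cells, KO minus WT, turned to -0.348 points without KO cells with a *Ywhaz* UMI, -2.88 with a call on 5 of 17 S phase members, -0.00921 with a marker gate, and -0.0241 with thinned cells, and ranged from -0.203 to 0.306 when a library was left out. On thinned cells the S phase call gave 0.0271 points, from 1 insulin-rich cell in KO 1. That in *Mki67* turned to -0.258 points without KO cells with a *Ywhaz* UMI and to -0.0289 with thinned cells, and ranged from -0.347 to 1.03 when a library was left out. That in *Pcna* stayed below 0 throughout, from -7.90 to -2.55 points when a library was left out, with -9.26 without KO cells with a *Ywhaz* UMI and -0.395 with thinned cells. Leaving out KO cells with a *Ywhaz* UMI keeps shallower cells in KO alone, so that these 3 differences also reflect depth. The difference of macrophage-like from insulin-rich cells turned to -0.192 points with a call at 8 members and -0.179 with thinned cells, and ranged from -0.155 to 0.215 when a library was left out. The cause was not tested. In the other 5 classes the direction held in every alternative, although single libraries and other settings moved the sizes. Thinned cells gave -0.0739 points for other endocrine, -0.179 for endothelial-like, and 1.23 for stellate-like cells. For B-like and T-like cells they gave 1.07 and 0.772 points. The marker gate gave -0.198 points for other endocrine and -0.0628 for endothelial-like cells. A call at 3 members gave 5.43 points for stellate-like cells. Few dividing insulin-rich cells, 32 in 4 libraries, and 3 libraries per genotype limit all these comparisons.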
